A study of Mus musculus with 8 samples.

Results

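The Cyp2c genes are a family of cytochrome P450 genes that lie side by side on mouse chromosome 19. The 10 genes described here were picked by name, as Cyp2c29, Cyp2c37, Cyp2c38, Cyp2c39, Cyp2c40, Cyp2c50, Cyp2c54, Cyp2c55, Cyp2c69 and Cyp2c70, out of the 24940 genes of a liver RNA-seq count table. That table holds 16 Cyp2c genes in all, and the choice by name applies no threshold to a measured value. The mice were C57BL/6 males, and 4 livers of each genotype were sequenced. All 8 mice carried 2 floxed Bcl6 alleles and a whole-body deletion of Fxr (Nr1h4), the nuclear bile acid receptor. The 4 FxrKO mice (livers 1 to 4) kept a working Bcl6, which encodes a transcriptional repressor of the liver. The 4 Bcl6LKOFxrKO mice (livers 5 to 8) also carried Cre under the albumin promoter, which removes Bcl6 in hepatocytes. Cre was present in 1 genotype alone, so an effect of Cre, an effect of Bcl6 loss and any other difference that goes with them cannot be told apart. Age and feeding state of each mouse are not given in the sources used here, and no mouse with a working Fxr was analysed here.

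CYP2C enzymes sit in the endoplasmic reticulum of hepatocytes, take electrons from the reductase POR, and oxidise drugs, steroids and polyunsaturated fatty acids. Several mouse members turn arachidonic acid into epoxyeicosatrienoic acids, lipid mediators that epoxide hydrolases then inactivate, and CYP2C70 makes muricholic acids, trihydroxy bile acids typical of mice. Many Cyp2c genes are expressed at unlike levels in male and female liver, under the control of pituitary growth hormone, STAT5 and BCL6.

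The libraries held between 7586241 and 11839503 counts on genes, and the first principal component (71.7% of the variance) separated the genotypes. Bcl6 fell from 49.6 ± 19.4 to 7.44 ± 3.24 CPM (counts scaled to a library of 1000000, SD, n = 4), with a log2 fold change of −2.72 ± 0.40 (SE, adjusted p = 0.0012, edgeR). Nr1h4 was still counted in every liver, at 60.0 ± 2.46 CPM in FxrKO and 43.5 ± 3.69 CPM in Bcl6LKOFxrKO livers (SD, n = 4), so counts over the whole transcript do not check that deletion. Alb, the serum albumin gene, held 4.04 to 5.16% of all counts in FxrKO and 11.9 to 13.2% in Bcl6LKOFxrKO livers. CPM values here were scaled with TMM factors (trimmed mean of M-values), which limit the pull of such abundant genes on the other genes.

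Of the 10 Cyp2c genes, 2 rose, 6 fell and 2 did not pass the test between Bcl6LKOFxrKO and FxrKO livers. Genes counted as changed had an adjusted p under 0.05 in the quasi-likelihood F test of edgeR, where p-values were adjusted by Benjamini-Hochberg over all 12340 tested genes. By this rule 16.2% of all tested genes were higher and 13.5% were lower in Bcl6LKOFxrKO livers. When an absolute log2 fold change above 0.5 was also required, 2 members were higher and 5 were lower, against 14.1% higher and 9.84% lower among all genes. The median log2 fold change of the 10 genes was −0.75, against 0.01 over all tested genes. Without overlap between the genotypes, 2 members lay above and 6 lay below, whereas 16.1% of all tested genes lay above and 15.2% lay below without overlap. For each of these 8 members the exact two-sided permutation test of mean CPM over the 70 orderings of the livers gave p = 0.029, the smallest that 4 livers against 4 can give, before any adjustment for the 10 tests.

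**Figure D1:**
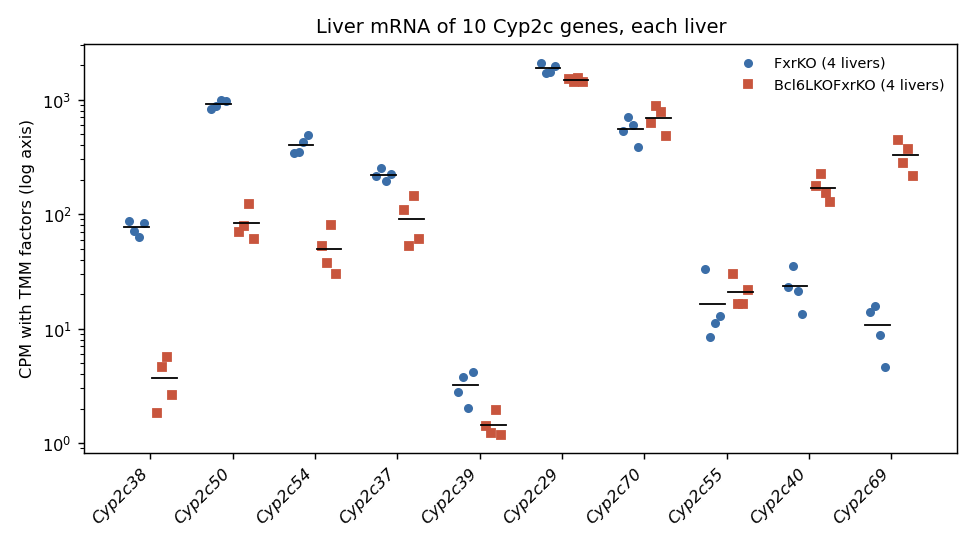
CPM with TMM factors on a log axis for the 10 Cyp2c genes in each liver, with FxrKO as blue circles, Bcl6LKOFxrKO as red squares and the mean of 4 livers as a black line. Genes are ordered from the largest fall (Cyp2c38) to the largest rise (Cyp2c69), and the genotypes overlap only for Cyp2c55 and Cyp2c70.

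The largest rise was that of Cyp2c69, a gene with higher expression in female than in male mouse liver. Cyp2c69 was counted at 14.0, 15.7, 8.71 and 4.64 CPM in FxrKO livers 1 to 4 and at 444.1, 279.7, 370.6 and 216.7 CPM in Bcl6LKOFxrKO livers 5 to 8. The lowest Bcl6LKOFxrKO liver was far above the highest FxrKO liver, and the mean was 30.4 times higher. Its log2 fold change reached 4.94 ± 0.41 (SE, adjusted p = 4.3e-05, edgeR), and 56 of the 12340 tested genes had a higher one. Among all 24940 genes, tested or not, Cyp2c69 went from rank 7253 to rank 340 in mean CPM.

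Cyp2c40, which encodes an arachidonate hydroxylase and is also expressed more in female liver, rose as well. It stood at 23.3, 35.2, 21.4 and 13.5 CPM in FxrKO livers 1 to 4 and at 174.4, 225.1, 152.0 and 127.8 CPM in Bcl6LKOFxrKO livers 5 to 8. Every Bcl6LKOFxrKO liver exceeded every FxrKO liver, with a mean 7.27 times higher. On the log2 scale the change was 2.87 ± 0.28 (SE, adjusted p = 4.2e-05, edgeR).

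The largest fall was that of Cyp2c38, which encodes an arachidonate epoxygenase. Cyp2c38 was counted at 87.9, 71.4, 63.5 and 83.1 CPM in FxrKO livers 1 to 4, and at 1.81, 4.61, 5.65 and 2.63 CPM in Bcl6LKOFxrKO livers 5 to 8. The Bcl6LKOFxrKO values came from only 18 to 58 counts per liver, against 571 to 878 counts in FxrKO livers. This was a log2 fold change of −4.39 ± 0.27 (SE, adjusted p = 4.3e-07, edgeR), a mean 20.8 times lower, and 41 tested genes had a lower log2 fold change.

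Cyp2c50, Cyp2c54 and Cyp2c37 form a trio of neighbouring genes for enzymes that oxidise fatty acids, and all fell, but by different amounts. Cyp2c50 stood at 831.9, 871.7, 1001.0 and 975.8 CPM in FxrKO livers 1 to 4 and at 69.3, 79.5, 122.9 and 60.4 CPM in Bcl6LKOFxrKO livers 5 to 8. Cyp2c54 stood at 343.0, 351.1, 426.3 and 488.0 CPM and at 52.7, 37.3, 79.8 and 30.1 CPM in the same order. Cyp2c37 stood at 215.0, 253.8, 194.1 and 223.5 CPM and at 108.5, 52.4, 142.7 and 60.5 CPM. None of the trio overlapped between genotypes, and liver 7 had the highest Bcl6LKOFxrKO level of all 3. The means were 11.1 times lower for Cyp2c50, 8.05 times lower for Cyp2c54 and 2.43 times lower for Cyp2c37. The log2 fold change was −3.47 ± 0.21 for Cyp2c50 (SE, adjusted p = 1.2e-07, edgeR). The same test gave −3.01 ± 0.29 for Cyp2c54 (SE, adjusted p = 3.6e-05) and −1.28 ± 0.29 for Cyp2c37 (SE, adjusted p = 0.0094).

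Cyp2c39, which encodes a retinoic acid hydroxylase, was the least expressed of the 10 genes and fell too. Its level was 2.81, 3.75, 2.04 and 4.16 CPM in FxrKO livers 1 to 4 and 1.41, 1.21, 1.95 and 1.18 CPM in Bcl6LKOFxrKO livers 5 to 8. These values came from 10 to 44 counts per liver, and FxrKO liver 3 and Bcl6LKOFxrKO liver 7 nearly met. On the log2 scale its change was −1.14 ± 0.30 (SE, adjusted p = 0.012, edgeR).

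Cyp2c29, the most abundant member and an arachidonate epoxygenase, changed little in comparison. It was counted at 2107, 1722, 1757 and 1986 CPM in FxrKO livers 1 to 4 and at 1514, 1424, 1551 and 1426 CPM in Bcl6LKOFxrKO livers 5 to 8. All Bcl6LKOFxrKO livers were below all FxrKO livers, with a mean 1.28 times lower. The log2 fold change was −0.36 ± 0.12 (SE, adjusted p = 0.037, 95% confidence interval −0.61 to −0.10, edgeR). This call did not hold in 6 of the 8 fits that left out a single liver, those without livers 1, 3, 4, 5, 6 or 7, in which the adjusted p was 0.050 to 0.099 and the log2 fold change −0.40 to −0.30.

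Cyp2c70, the muricholic acid enzyme, and Cyp2c55, which encodes an arachidonate hydroxylase, did not pass the test. Cyp2c70 was counted at 537.2, 707.3, 603.2 and 389.6 CPM in FxrKO livers 1 to 4 and at 630.0, 880.7, 786.8 and 478.6 CPM in Bcl6LKOFxrKO livers 5 to 8, with overlap. Its log2 fold change was 0.31 (95% confidence interval −0.14 to 0.76, adjusted p = 0.28, edgeR), an interval that holds no fall of more than 0.14 on the log2 scale. Cyp2c55 was counted at 33.1, 8.37, 11.3 and 12.8 CPM in FxrKO livers 1 to 4 and at 29.7, 16.5, 16.4 and 21.5 CPM in Bcl6LKOFxrKO livers 5 to 8. FxrKO liver 1 alone reached the Bcl6LKOFxrKO range. The log2 fold change was 0.36 (95% confidence interval −0.62 to 1.33, adjusted p = 0.57, edgeR), and without FxrKO liver 1 it was 0.95 (adjusted p = 0.011). The first exon of Cyp2c55 overlaps the annotated miRNA gene Gm23800 on the opposite strand, and the strand setting of the counting is not given in the sources used here.

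The 10 genes lie between 39007019 and 40187286 on chromosome 19 of mm10, a stretch of 1180268 bases in which the count table places no gene other than Cyp2c genes. Members that fell lay on both sides of Cyp2c40 and Cyp2c69, which rose and stand next to each other. From Cyp2c29 to Cyp2c39, all 3 members fell, followed by Cyp2c67 and Cyp2c68, then by Cyp2c40 (39767073 to 39812814) and Cyp2c69 (39842660 to 39886769), which rose. Cyp2c37 (39992424 to 40012243), Cyp2c54 (40037940 to 40073813) and Cyp2c50 (40089679 to 40113955) fell, and Cyp2c70 (40153361 to 40187286) at the end of the cluster was not called. The genes that rose are read from the minus strand, as are Cyp2c38 and Cyp2c54, which fell.

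**Figure D2:**
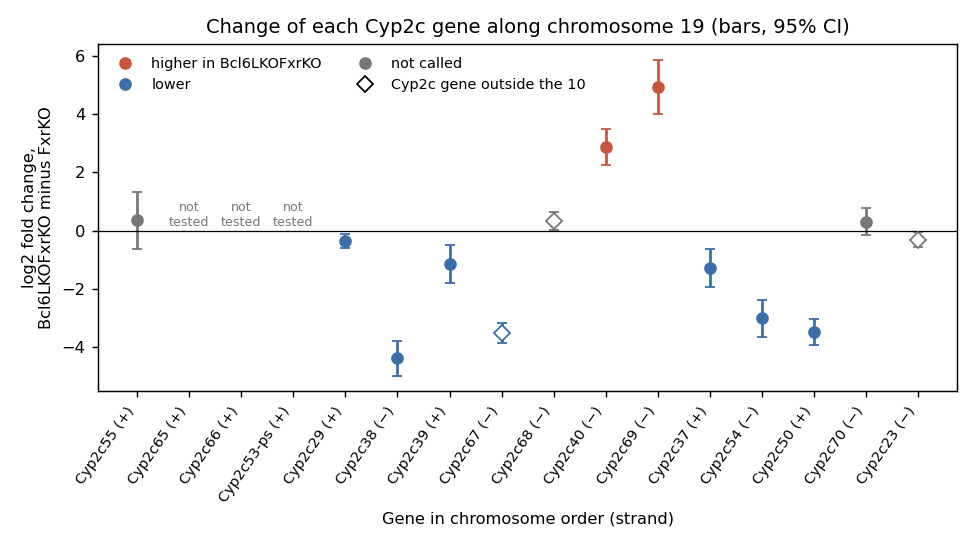
Log2 fold change (Bcl6LKOFxrKO minus FxrKO, edgeR) with its 95% confidence interval for the 13 tested of 16 Cyp2c genes in their order on chromosome 19, with strand in parentheses and the 3 untested genes marked. The spacing is by order and not to scale, Cyp2c23 lies well outside the cluster, and the higher members Cyp2c40 and Cyp2c69 stand next to each other, between Cyp2c68 (not called) and Cyp2c37 (lower).

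Of the 6 Cyp2c genes outside the 10, Cyp2c53-ps, Cyp2c65 and Cyp2c66 had too few counts to be tested. Cyp2c67 was counted at 332.0, 303.0, 283.5 and 323.1 CPM in FxrKO livers 1 to 4 and at 32.5, 29.6, 27.2 and 19.9 CPM in Bcl6LKOFxrKO livers 5 to 8. It was 11.4 times lower without overlap (log2 fold change −3.51 ± 0.15, SE, adjusted p = 5.1e-09, edgeR). Cyp2c68 was at 140.8 ± 17.3 and 177.3 ± 30.8 CPM (SD, n = 4), and did not pass the test (log2 fold change 0.33, adjusted p = 0.094). Cyp2c23 was at 352.4 ± 16.9 and 285.0 ± 32.8 CPM (SD, n = 4), and did not pass it either (log2 fold change −0.31, adjusted p = 0.062). Both calls depended on the fit. Cyp2c68 passed with limma voom (adjusted p = 0.012) and without Bcl6LKOFxrKO liver 8 (adjusted p = 0.011), and Cyp2c23 passed with DESeq2 (adjusted p = 0.033) and with scaling by total counts (adjusted p = 0.011).

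Close relatives within the family did not all move in the same direction. In coding sequence (GENCODE M21 transcripts on GRCm38, all 10 members matched), Cyp2c40 and Cyp2c69, which both rose, were 97.9% identical over 1473 aligned bases. Cyp2c67, which fell, was 97.7% identical to Cyp2c69 and 97.7% identical to Cyp2c40. Cyp2c37 and Cyp2c50 were 96.1% identical, Cyp2c54 and Cyp2c50 were 95.2% identical, and Cyp2c38 and Cyp2c39 were 94.2% identical. The least alike pair of members was Cyp2c69 and Cyp2c70, with 65.7% of aligned coding bases in common.

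Such likeness bears on the counts, because reads of 100 bases were kept only when they had 1 location in the genome. For Cyp2c40, 55.9% of all 100-base windows of the transcript occurred in no transcript of another gene, and for Cyp2c69 this share was 63.7%. It was 76.3% for Cyp2c67 and 80.2% for Cyp2c68. The shares were 95.3% for Cyp2c37, 92.4% for Cyp2c54 and 90.6% for Cyp2c50, and 100% for Cyp2c29, Cyp2c38, Cyp2c39, Cyp2c55 and Cyp2c70. The counts of Cyp2c40 and Cyp2c69 thus rest on part of each transcript, and how reads with sequencing errors were divided among these near copies was not tested.

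When the counts of Cyp2c40, Cyp2c67, Cyp2c68 and Cyp2c69 were summed into 1 feature, the change was much smaller. The sum was 535.7, 488.2, 442.4 and 474.9 CPM in FxrKO livers 1 to 4 and 859.1, 722.6, 728.0 and 499.3 CPM in Bcl6LKOFxrKO livers 5 to 8. Bcl6LKOFxrKO liver 8 lay inside the FxrKO range, below FxrKO liver 1, so the genotypes overlapped for the sum. The log2 fold change of the sum was 0.53 ± 0.15 (SE, adjusted p = 0.020, edgeR), whereas Cyp2c40 and Cyp2c69 summed gave 3.87 ± 0.31 (SE, adjusted p = 1.3e-05). Per transcript length (RPKM, the CPM divided by transcript length in kilobases), Cyp2c67 made up 62.9 to 68.9% of the summed level of these 4 genes in FxrKO livers and 3.88 to 4.27% in Bcl6LKOFxrKO livers. Cyp2c69 made up 0.952 to 3.15% in FxrKO and 38.9 to 51.8% in Bcl6LKOFxrKO livers, and Cyp2c40 made up 2.73 to 6.94% and 20.0 to 30.7%. The share of Cyp2c68 was 26.9 to 30.4% in FxrKO and 24.3 to 27.1% in Bcl6LKOFxrKO livers.

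**Figure D3:**
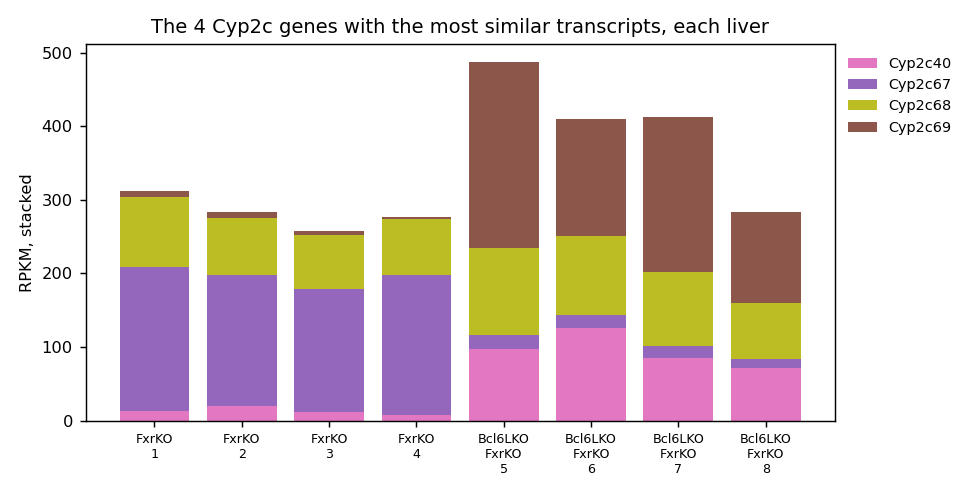
Stacked RPKM of Cyp2c40, Cyp2c67, Cyp2c68 and Cyp2c69 in each of the 8 livers. Cyp2c67 fills 62.9 to 68.9% of the bar in the 4 FxrKO livers, and Cyp2c69 fills 38.9 to 51.8% in the 4 Bcl6LKOFxrKO livers.

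The promoters of these genes are shown because they are nearly as alike as the transcripts while the genes moved in opposite directions. Sequences are those of RefSeq on GRCm38.p6, from 250 bases before to 50 bases after the start of the gene, and 9 of the 10 members had one. Capitals mark matches to 2 motifs, AAAGTCCA (HNF4 type) and TTGCNNAA (C/EBP type), searched on both strands. Over aligned bases the promoters of Cyp2c40 and Cyp2c69 were 98.9% identical, those of Cyp2c67 and Cyp2c69 were 92.8% identical and those of Cyp2c67 and Cyp2c40 were 93.2% identical. They lie on the minus strand at chr19:39886720-39887019 for Cyp2c69, chr19:39812765-39813064 for Cyp2c40 and chr19:39648993-39649292 for Cyp2c67.
Cyp2c69 promoter: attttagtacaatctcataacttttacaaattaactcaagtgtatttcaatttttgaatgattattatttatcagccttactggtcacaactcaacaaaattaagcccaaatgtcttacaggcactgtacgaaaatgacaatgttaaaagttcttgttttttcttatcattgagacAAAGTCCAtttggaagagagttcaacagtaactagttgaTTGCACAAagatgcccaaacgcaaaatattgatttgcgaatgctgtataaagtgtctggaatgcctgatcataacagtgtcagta
Cyp2c40 promoter: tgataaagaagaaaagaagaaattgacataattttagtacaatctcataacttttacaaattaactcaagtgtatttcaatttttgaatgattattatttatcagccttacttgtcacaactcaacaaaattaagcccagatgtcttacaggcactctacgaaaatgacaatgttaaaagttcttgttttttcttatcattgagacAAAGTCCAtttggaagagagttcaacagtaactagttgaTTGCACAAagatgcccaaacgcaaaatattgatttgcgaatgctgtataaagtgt
Cyp2c67 promoter: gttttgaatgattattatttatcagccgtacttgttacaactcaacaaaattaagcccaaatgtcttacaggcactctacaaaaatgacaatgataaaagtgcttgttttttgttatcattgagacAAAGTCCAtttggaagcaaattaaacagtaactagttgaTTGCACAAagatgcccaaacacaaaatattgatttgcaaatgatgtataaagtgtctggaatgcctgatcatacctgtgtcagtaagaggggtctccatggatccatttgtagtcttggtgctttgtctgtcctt

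All 3 held the HNF4-type and the C/EBP-type letters, the one downstream of the other. The HNF4-type letters began 74 bases before the start of Cyp2c69, 44 before that of Cyp2c40 and 124 before that of Cyp2c67. The C/EBP-type letters began 35, 5 and 85 bases before the same starts, so the spacing between the motifs was the same in all 3. These distances are counted from the annotated start of each gene. The promoter of Cyp2c68, 94.4% identical to that of Cyp2c40, held the HNF4-type letters but not the C/EBP-type letters. The HNF4-type motif was in 1.25% of the 32851 mouse promoters of the same length, and the C/EBP-type motif was in 10.8% of them. Among the 9 members with a promoter, 3 held the HNF4-type letters (Cyp2c40, Cyp2c69 and Cyp2c70) and 3 held the C/EBP-type letters (Cyp2c40, Cyp2c69 and Cyp2c37). The STAT5- and BCL6-type letters TTCNNNGAA were in 8.30% of all promoters and the HNF1-type letters GTTAATNA in 2.54%, and neither was found in these windows of the 9 members. A match describes letters and not a bound site.

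The next promoters are those of the pair that fell by unlike amounts, Cyp2c50 and Cyp2c37, and that of Cyp2c38, the member with the largest fall. Cyp2c50 and Cyp2c37 are on the plus strand, at chr19:40089429-40089728 and chr19:39992174-39992473, and were 89.5% identical over aligned bases. Cyp2c38 is on the minus strand, at chr19:39463026-39463325, and was 88.2% identical to the promoter of Cyp2c39. Capitals mark C/EBP-type letters in Cyp2c37 and FOXA-type letters (TGTTTAC) in Cyp2c38.
Cyp2c50 promoter: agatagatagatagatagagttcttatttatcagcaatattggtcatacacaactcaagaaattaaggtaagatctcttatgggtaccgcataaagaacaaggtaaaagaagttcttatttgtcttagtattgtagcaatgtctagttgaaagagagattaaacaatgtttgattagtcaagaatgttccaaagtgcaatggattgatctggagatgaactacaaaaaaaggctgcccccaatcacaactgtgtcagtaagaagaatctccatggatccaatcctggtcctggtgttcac
Cyp2c37 promoter: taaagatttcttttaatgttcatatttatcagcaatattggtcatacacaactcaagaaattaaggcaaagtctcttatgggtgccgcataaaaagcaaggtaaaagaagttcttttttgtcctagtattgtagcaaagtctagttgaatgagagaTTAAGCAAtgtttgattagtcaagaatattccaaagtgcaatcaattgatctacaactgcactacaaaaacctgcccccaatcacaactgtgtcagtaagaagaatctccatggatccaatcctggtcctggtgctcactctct
Cyp2c38 promoter: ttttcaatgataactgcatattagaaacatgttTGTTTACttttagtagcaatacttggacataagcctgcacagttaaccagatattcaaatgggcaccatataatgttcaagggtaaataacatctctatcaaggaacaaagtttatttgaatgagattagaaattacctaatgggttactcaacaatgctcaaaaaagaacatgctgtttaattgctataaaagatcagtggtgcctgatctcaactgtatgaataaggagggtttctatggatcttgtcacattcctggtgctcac

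The FOXA-type letters were in the promoters of Cyp2c38 and Cyp2c39, which are 88.2% identical, and in 3.65% of all promoters. They were not found in the windows of Cyp2c29, Cyp2c37 and Cyp2c50, which fell as well.

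Ratios of close relatives within a liver do not depend on the scaling between libraries, and 7 such pairs were compared. The log2 ratio of Cyp2c40 to Cyp2c69 was 0.73, 1.16, 1.29 and 1.54 in FxrKO livers 1 to 4 and −1.35, −0.31, −1.29 and −0.76 in Bcl6LKOFxrKO livers 5 to 8. Counts of Cyp2c40 exceeded those of Cyp2c69 in every FxrKO liver and were fewer in every Bcl6LKOFxrKO liver (difference −2.11 ± 0.30, SE, exact two-sided permutation p = 0.029, the smallest possible, adjusted over 7 pairs 0.040). The log2 ratio of Cyp2c37 to Cyp2c50 was −1.95, −1.78, −2.37 and −2.13 in FxrKO livers and 0.65, −0.60, 0.22 and 0.0022 in Bcl6LKOFxrKO livers (difference 2.12 ± 0.29, SE, exact permutation p = 0.029, adjusted 0.040).

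Cyp2c37 thus fell less than both of its neighbours, since its log2 ratio to Cyp2c54 was −1.14 to −0.47 in FxrKO and 0.49 to 1.04 in Bcl6LKOFxrKO livers (exact permutation p = 0.029, adjusted 0.040). The log2 ratio of Cyp2c50 to Cyp2c54 was 1.21 ± 0.14 and 0.78 ± 0.33 (SD, n = 4), with overlap, a difference of −0.43 ± 0.18 (SE) that did not pass the exact permutation test (p = 0.086, adjusted 0.086). Cyp2c38 fell more than either relative. The log2 ratio of Cyp2c29 to Cyp2c38 was 4.58 to 4.79 in FxrKO and 8.09 to 9.67 in Bcl6LKOFxrKO livers, and that of Cyp2c38 to Cyp2c39 was 4.23 to 4.94 and 0.35 to 1.87 (exact permutation p = 0.029, adjusted 0.040, for each). For Cyp2c29 to Cyp2c39 the ranges, 8.82 to 9.71 and 9.60 to 10.2, overlapped (exact permutation p = 0.057, adjusted 0.067).

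**Figure D4:**
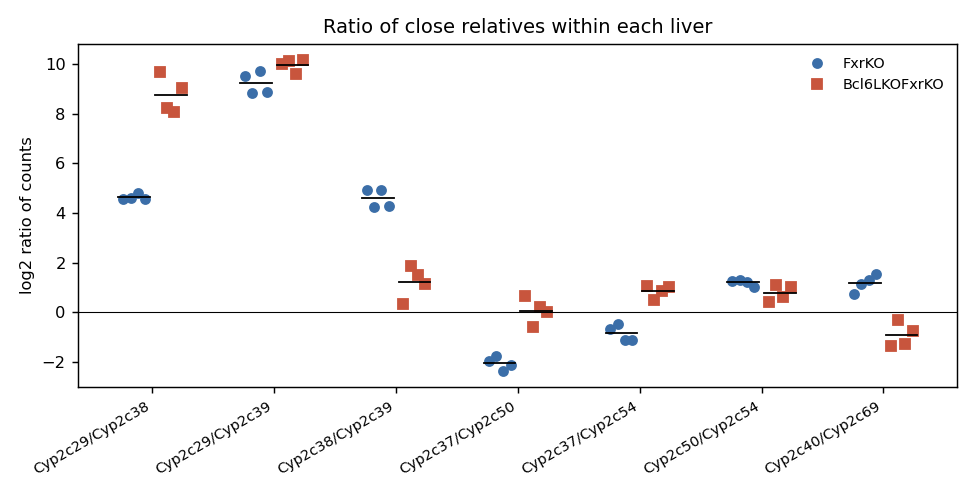
Log2 ratio of the counts of 2 close relatives within each liver for 7 pairs, with FxrKO as blue circles, Bcl6LKOFxrKO as red squares and means as black lines. The genotypes separate for 5 pairs and overlap for Cyp2c29/Cyp2c39 and Cyp2c50/Cyp2c54, and the ratio of Cyp2c40 to Cyp2c69 crosses 0.

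The order of the members by level changed between the genotypes. In RPKM, which allows a comparison between genes by transcript length, FxrKO livers were led by Cyp2c29 (1066 ± 104), Cyp2c50 (504.7 ± 44.5), Cyp2c70 (329.4 ± 78.4), Cyp2c54 (228.4 ± 38.9) and Cyp2c37 (122.2 ± 13.7, SD, n = 4). The values of Cyp2c70 and Cyp2c54 overlapped, as did those of Cyp2c40, Cyp2c55 and Cyp2c69 further down, while the other neighbours in this order stood apart. Bcl6LKOFxrKO livers were led by Cyp2c29 (833.2 ± 36.1), Cyp2c70 (408.7 ± 104.2), Cyp2c69 (186.3 ± 56.9) and Cyp2c40 (94.9 ± 23.2, SD, n = 4). From Cyp2c69 to Cyp2c54, each gene overlapped the next one down, with Cyp2c37 at 50.2 ± 23.4, Cyp2c50 at 45.5 ± 15.2 and Cyp2c54 at 28.4 ± 12.5 RPKM (SD, n = 4). The least expressed were Cyp2c38 and Cyp2c39 in Bcl6LKOFxrKO livers, at 1.29 ± 0.62 and 0.78 ± 0.19 RPKM (SD, n = 4), and they overlapped.

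As shares of the summed RPKM of the 10 genes, Cyp2c29 held 46.2 ± 3.79% in FxrKO and 50.6 ± 5.30% in Bcl6LKOFxrKO livers (SD, n = 4). Cyp2c50 held 21.9 ± 2.0% and 2.71 ± 0.66%, and Cyp2c54 held 9.89 ± 1.64% and 1.67 ± 0.58%. Cyp2c70 held 14.3 ± 3.60% and 24.4 ± 4.44%, although its level did not pass the test. Cyp2c69 went from 0.27 ± 0.13% to 11.1 ± 2.64% and Cyp2c40 from 0.57 ± 0.23% to 5.71 ± 1.18% (SD, n = 4). Shares of a sum are not independent of each other, and no test was run on them. RPKM was divided by the whole transcript, while 55.9% of the windows of Cyp2c40 and 63.7% of those of Cyp2c69 were found in no other gene, so the levels, ranks and shares of these members may be understated against those with 100%. The 10 genes together took 0.426 to 0.443% of all counts in FxrKO and 0.226 to 0.317% in Bcl6LKOFxrKO livers. With the 50 most counted genes left out of the total, which held 29.8 to 31.2% of counts in FxrKO and 40.7 to 44.1% in Bcl6LKOFxrKO livers, these means went from 0.436 to 0.629% and from 0.276 to 0.475%. In bulk liver, fewer cells that express a gene and less of its mRNA per cell cannot be told apart.

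**Figure D5:**
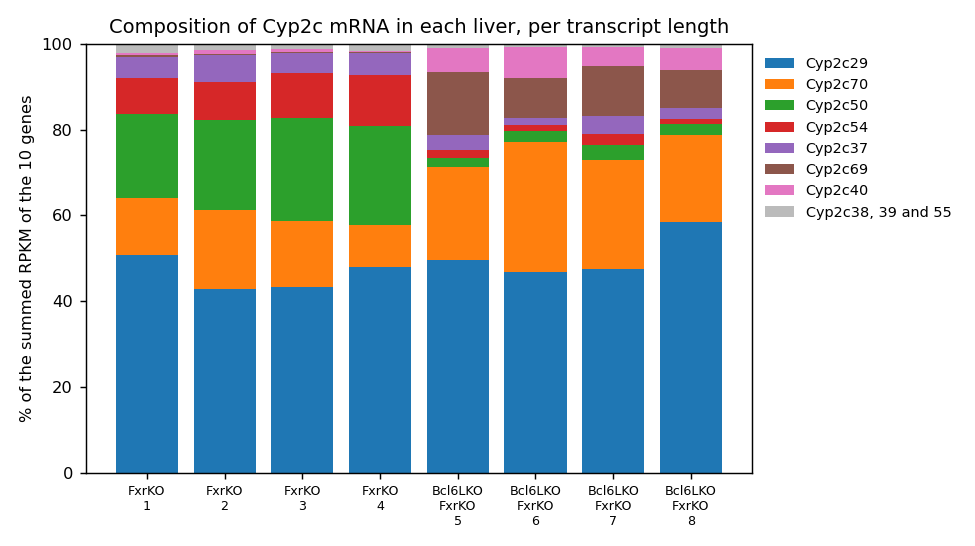
Share of each Cyp2c gene in the summed RPKM of the 10 genes, in percent, for each liver. Cyp2c29 is the largest share in all 8 livers, Cyp2c50 and Cyp2c54 shrink from 21.9 and 9.89% on average in FxrKO to 2.71 and 1.67% in Bcl6LKOFxrKO livers, while Cyp2c69 and Cyp2c40 grow to 11.1 and 5.71%.

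Livers of a genotype also differed among themselves. Log2 levels of all pairs of members were correlated over the 8 livers after subtracting genotype means. The highest values were those of Cyp2c40 and Cyp2c70 (r = 0.86), Cyp2c50 and Cyp2c54 (r = 0.86) and Cyp2c37 and Cyp2c54 (r = 0.81). Cyp2c29 and Cyp2c55 (r = 0.75) and Cyp2c40 and Cyp2c69 (r = 0.75) came next. Other close relatives were less correlated, such as Cyp2c37 and Cyp2c50 (r = 0.58) and Cyp2c29 and Cyp2c38 (r = 0.34). At the other end, Cyp2c29 and Cyp2c40 had r = −0.44. These values describe 8 livers, whose genes share library and scaling.

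Among genes for enzymes that work beside CYP2C proteins, 1 of 5 electron donor genes rose, 1 fell and 3 did not pass, against 16.2% higher and 13.5% lower among all tested genes. Cyb5r3, a cytochrome b5 reductase, rose from 752.3 ± 95.8 to 1229 ± 246 CPM (SD, n = 4, log2 fold change 0.71, adjusted p = 0.0043, edgeR), and Cyb5b, a cytochrome b5, fell by 0.35 on the log2 scale (adjusted p = 0.034, edgeR). Por, the P450 reductase, was at 459.8 ± 126.9 and 526.2 ± 160.8 CPM (SD, n = 4, log2 fold change 0.19, adjusted p = 0.57, edgeR). Cyb5a and Pgrmc1 had log2 fold changes of −0.25 and −0.09 and did not pass. Of 4 epoxide hydrolase genes, Ephx1 rose (log2 fold change 0.69, adjusted p = 0.0030, edgeR), Ephx2, which encodes the soluble enzyme for epoxyeicosatrienoic acids, fell by 0.40 on the log2 scale (adjusted p = 0.041, edgeR), and Ephx3 and Ephx4 had too few counts to be tested.

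Among 20 genes for arachidonate supply and for other arachidonate P450s, 3 rose, 12 fell and 5 did not pass. Over all tested genes, 16.2% were higher and 13.5% were lower. The median log2 fold change of the 20 genes was −0.58. Cyp4a12a, a fatty acid hydroxylase gene of male liver, was at 389.9 ± 80.3 CPM in FxrKO and 1.37 ± 1.11 CPM in Bcl6LKOFxrKO livers (SD, n = 4, log2 fold change −8.22, adjusted p = 6.8e-07, edgeR). Its near copy Cyp4a12b and the hydroxylase Cyp4f15 fell by 7.40 and 0.96 on the log2 scale. The desaturase genes Fads1 and Fads2 and the phospholipase gene Pla2g15 rose, by log2 fold changes of 0.89, 0.48 and 0.43.

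Of 24 regulators of Cyp2c genes, 3 rose, 7 fell and 14 did not pass, with a median log2 fold change of −0.14. The shares over all tested genes were 16.2% higher and 13.5% lower. The growth hormone receptor gene Ghr rose from 421.1 ± 37.0 to 2028 ± 340 CPM (SD, n = 4, log2 fold change 2.27, adjusted p = 2.1e-07, edgeR). Cux2, a repressor expressed more in female liver, was at 1.89 ± 2.08 and 87.3 ± 12.3 CPM (SD, n = 4, log2 fold change 5.45), and the coregulator Trim24 had a log2 fold change of 1.22. Nr0b2, the corepressor SHP and a target of FXR, fell by 3.85 on the log2 scale, the pioneer factor gene Foxa1 by 1.64 and the fatty acid receptor gene Ppara by 0.99. In bile acid synthesis, the pathway whose products CYP2C70 modifies, 10 of 14 genes fell and 4 did not pass, with a median of −0.49. Those 4 were Cyp7a1, Cyp8b1, Akr1d1 and Cyp27a1. Their log2 fold changes were 0.57, 0.22, 0.40 and −0.30 (adjusted p = 0.50, 0.42, 0.20 and 0.061, edgeR). The sterol hydroxylase genes Cyp7b1 and Cyp39a1 and the sterol carrier gene Scp2 fell by 2.95, 2.14 and 1.45 on the log2 scale.

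Within 1 Mb of the members, 17 of 26 other genes were tested, of which 8 rose, 1 fell and 8 did not pass. Among all tested genes, 16.2% were higher and 13.5% were lower. The nearest tested neighbours were Tbc1d12, with a log2 fold change of −0.39 (adjusted p = 0.16, edgeR), and Pdlim1, with 0.54 (adjusted p = 0.0097, edgeR). Aldh18a1, an enzyme of proline synthesis, and the fatty acid receptor Ffar4 rose, by log2 fold changes of 2.04 and 2.44, and Slc35g1 fell by 0.67 on the log2 scale.

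Markers of liver cell types moved with the genotype as well, and their part in the Cyp2c changes was not tested. For comparison, 16.2% of all tested genes were higher and 13.5% were lower. Of 7 hepatocyte markers in the table, Alb rose (log2 fold change 1.60), Ttr and Apob fell by 0.76 and 0.45 on the log2 scale, and the summed level was 56331 to 68612 CPM in FxrKO and 145374 to 163500 CPM in Bcl6LKOFxrKO livers. Alb carried this rise, and the other 6 markers summed to 18093 to 20684 CPM in FxrKO and 14835 to 17581 CPM in Bcl6LKOFxrKO livers. Of 12 markers of pericentral hepatocytes, 5 rose and 1 fell. Log2 fold changes were 1.68 for Slc1a2, 2.35 for Slc13a3, 1.04 for Rhbg and −1.92 for Cyp2e1. The sums were 13388 to 17973 CPM in FxrKO and 5516 to 8919 CPM in Bcl6LKOFxrKO livers. Cyp2e1 alone went from 10677 ± 1730 to 2819 ± 575 CPM (SD, n = 4) and carried the fall of the sum. Of 10 periportal markers, 3 fell (log2 fold changes of −1.52 for Cyp2f2, −1.61 for Pck1 and −0.34 for Hsd17b13) and 7 did not pass, with sums of 5688 to 9206 and 3417 to 5410 CPM.

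Markers of other cells rose where they changed, while 16.2% of all tested genes were higher and 13.5% were lower. Of 8 stellate cell markers 5 rose, Dcn, Pdgfrb and Reln among them (log2 fold changes 1.05, 1.06 and 0.77), with sums of 174.3 to 227.7 CPM in FxrKO and 326.1 to 394.2 CPM in Bcl6LKOFxrKO livers. Of 8 macrophage markers 2 rose, Lyz2 and Cd68 (0.81 and 0.93), with sums of 384.4 to 543.5 and 535.3 to 867.5 CPM that overlapped. Of 4 tested cholangiocyte markers Spp1 rose from 43.4 to 87.2 CPM and Krt19 from 1.03 to 2.54 CPM on average, while Epcam (log2 fold change 0.78) and Sox9 (−0.81) did not pass, and Krt7 and Cftr had too few counts to be tested (these 4 were named after their values were seen). The sums of this list were 41.5 to 66.1 and 74.4 to 134.1 CPM, and without Spp1 they were 4.84 to 12.4 and 8.18 to 11.0 CPM and overlapped. Of 8 endothelial markers Stab2 rose (0.63), with sums of 168.7 to 238.9 and 215.9 to 285.3 CPM that overlapped, and of 8 T and B cell markers only Ptprc had enough counts to be tested and rose (0.79), with sums of 9.08 to 11.7 and 14.9 to 20.9 CPM.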

How the data were processed

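Per the labels and the study's methods, polyA RNA of 8 livers was sequenced from a stranded kit as single-end reads of 100 bases, aligned with STAR 2.5.2 to the mm10 genome so that only reads of 1 location were kept, and counted by the authors with HOMER 4.10 over the exons of 1 transcript per gene. The values used are the raw counts the authors deposited. Replicates are the separate mice of the labels. Counts were fitted with edgeR 4.0.16 in R 4.3.3 (filterByExpr, TMM, robust quasi-likelihood fit, Benjamini-Hochberg over 12340 genes). CPM and RPKM were computed from these counts, the latter with the table's transcript lengths. Ratios had 0.5 counts added. Depth was 7586241 to 11839503 counts per liver, so Cyp2c39 and, in Bcl6LKOFxrKO livers, Cyp2c38 rest on few counts. Alternatives were DESeq2 1.42.0, limma 3.58.1 voom, other scalings, filters and fold thresholds, each liver left out, and near copies summed. Fits were tested on simulated counts. Named genes were all members, all genes of the lists of other Cyp2c genes, electron donors and epoxide hydrolases, and from each other list the 3 higher and 3 lower genes of smallest adjusted p. Beyond these, Bcl6, Nr1h4, Alb, Cyp7a1, Cyp8b1, Akr1d1, Cyp27a1 and the nearest tested neighbours were named. Some genes that this rule or a list gives are not reported here. The members and lists were chosen with earlier results of these data known.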

Additional observations from a re-analysis of the deposited data

Results flagged for a closer look

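In FxrKO livers the log2 ratio of Cyp2c29 to Cyp2c38 was 4.79 in liver 3 and 4.58 to 4.59 in the other 3 livers, so its gap to the nearest liver was 0.936 of the range of the group, above Dixon's critical value at the 95% level for 4 livers. It was the only such value among 36 comparisons of single livers with their group, of which chance alone would flag about 1.8. The ratio in all 4 Bcl6LKOFxrKO livers was higher, at 8.09 to 9.67.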

How the results depend on the processing

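Over the 10 members, 153 of 160 recomputed changes kept their direction and their side of the threshold, 6 fell short of it (all for Cyp2c29, each without a single liver) and 1 passed it (Cyp2c55 without FxrKO liver 1), and no direction turned. With the near copies summed into 3 features, 1 feature was called higher (Cyp2c40 with Cyp2c69) and 1 was called lower (Cyp2c37 with Cyp2c50 and Cyp2c54) past the fold threshold of 0.5, while Cyp2c29, Cyp2c38 and Cyp2c39 summed gave −0.41 on the log2 scale (edgeR, adjusted p = 0.020). Over all genes, 1739 were called higher and 1214 lower. A log2 fold threshold of 1 gave 874 and 421, and scaling by total counts alone gave 1267 and 2128, with the median log2 fold change moved by −0.16. That scaling also took the regulators called lower from 7 to 11 and the arachidonate genes called higher from 3 to 1. Without the 50 most counted genes in the total, the members' share of counts was 0.629% in FxrKO and 0.475% in Bcl6LKOFxrKO livers. The 7 ratios kept their direction and side of the threshold in all 14 values with 0.1 or 2 counts added. They kept their direction in all 56 values without a single liver, on which no test was run. Summing Cyp2c40, Cyp2c67, Cyp2c68 and Cyp2c69 was chosen after seeing the data. No paired analysis was run because the labels name no pairs of mice, and whether any were littermates is not given in them. Depth limits Cyp2c39 and, in Bcl6LKOFxrKO livers, Cyp2c38.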
